A study of Mus musculus with 2 samples.

Results

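Unspliced intergenic models are transcript models with a single exon that lie outside every annotated gene. They were chosen by their class (intergenic), their exon number (1) and their read count (at least 2 reads in a library). The rule took 681 of 112272 models in replicate 1 and 866 of 112771 models in replicate 2, spike-ins left out. Models of both libraries that shared at least 1 base on the same strand were merged, which gave 1188 regions. Both libraries are long-read RNA libraries of the adrenal gland of male B6CASTF1/J mice (a cross of the C57BL/6 and CAST strains) at 14 days of age, and their labels call them biological replicates 1 and 2 of 1 group. The labels give both the same donor identifier and different biosample descriptions, and name several males, so separate animals per library cannot be read from them. The p-values below cover the counting error of the reads and no spread between animals or libraries. No treatment or genotype was compared, and every test below compares these libraries only.

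An annotated gene is a stretch of genome for which a catalogue, here GENCODE M21, lists at least 1 transcript. RNA from outside such stretches is known from several places: beyond the listed 3' end of a gene, on the opposite strand from an active promoter (divergent transcription), from processed pseudogenes, which are copies of messenger RNAs pasted back into the genome, and from short repeats. An unspliced model carries no splice junction, so its strand and its class rest on where the read was placed and on how it was compared with the catalogue.

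The members held 4007 of 964679 reads in replicate 1 (0.415%) and 5187 of 984958 reads in replicate 2 (0.527%). A further 1948 and 2180 unspliced intergenic models had 1 read and fell just outside the rule. The models just inside it, with 2 reads, numbered 344 and 448. Models with 2 reads had a median length of 277 and 211 bases, against 345 and 242 bases for models with 1 read. With all reads counted, those of overlapping 1-read models included, the 1188 regions held 4181 and 5305 reads, and their median was 3 reads over both libraries. The limit that a count of 0 allows, 3 reads, was 3.11 CPM (reads scaled to a total of 1000000) for replicate 1 and 3.05 for replicate 2. Intervals and limits cover counting error only. Of 10 lists of marker genes, the adrenal cortex list had the highest sum, 48120 CPM in replicate 1 and 48331 in replicate 2. The chromaffin list summed to 9603 and 9384 CPM, below the erythroid list with 14578 and 14472 and the fat list with 12671 and 12628. The hepatocyte list summed to 754 CPM in replicate 1 and to 15658 in replicate 2, there above all lists but that of the cortex. The lists held 3 to 13 genes, and their sums were not adjusted for that number.

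The set held 591 regions of up to 250 bases and 597 longer ones. Of the short ones, 6 could be read in the RefSeq promoter table (build GRCm38.p6) over at least 75% of their length, and they are shown because their 3' ends or their repeat content can be seen in the letters. They were chosen after the values were seen, by that coverage and a length of up to 250 bases. Each is named by the gene whose promoter window holds it and written on the strand of the region, and capitals mark AATAAA, the most common signal for cleavage and polyadenylation of messenger RNA.
Beside Pomt1, chr2:32236390-32236590, minus strand: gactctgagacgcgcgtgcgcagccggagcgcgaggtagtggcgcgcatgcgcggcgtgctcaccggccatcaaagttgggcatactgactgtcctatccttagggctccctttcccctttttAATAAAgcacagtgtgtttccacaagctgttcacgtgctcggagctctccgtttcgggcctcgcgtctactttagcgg
Beside Zfp207, chr11:80383040-80383279, minus strand: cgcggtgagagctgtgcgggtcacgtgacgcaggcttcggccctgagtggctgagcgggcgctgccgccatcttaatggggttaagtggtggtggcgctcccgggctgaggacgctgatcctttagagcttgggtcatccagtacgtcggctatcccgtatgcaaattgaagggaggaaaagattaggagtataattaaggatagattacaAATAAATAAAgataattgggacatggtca
Beside Gm34820, chr15:37135779-37135968, minus strand: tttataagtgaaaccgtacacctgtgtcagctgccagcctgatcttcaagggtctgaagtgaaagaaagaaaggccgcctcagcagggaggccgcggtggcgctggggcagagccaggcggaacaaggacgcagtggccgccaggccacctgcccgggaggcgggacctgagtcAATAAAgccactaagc
Beside Yif1b, chr7:29237511-29237643, minus strand: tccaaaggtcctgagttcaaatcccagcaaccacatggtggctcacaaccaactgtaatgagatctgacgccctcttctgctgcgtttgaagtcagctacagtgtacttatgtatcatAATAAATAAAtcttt
Beside Atg5, chr10:44268120-44268358, minus strand: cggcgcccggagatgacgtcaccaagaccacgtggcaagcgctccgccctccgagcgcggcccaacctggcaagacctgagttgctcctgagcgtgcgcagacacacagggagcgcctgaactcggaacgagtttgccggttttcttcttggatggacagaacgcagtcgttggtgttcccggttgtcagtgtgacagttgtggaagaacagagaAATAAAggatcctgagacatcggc
Beside AW146154, chr7:41499890-41500085, plus strand: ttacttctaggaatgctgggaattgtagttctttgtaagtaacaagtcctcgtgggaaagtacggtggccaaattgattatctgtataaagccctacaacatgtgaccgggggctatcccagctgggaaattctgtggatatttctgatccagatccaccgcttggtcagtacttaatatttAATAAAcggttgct

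The 6 regions had few reads. The region beside Pomt1 had 6 reads in replicate 1 and 8 in replicate 2, and the one beside Zfp207 had 2 and 6. The region beside Gm34820 had 2 and 1, the one beside Yif1b had 1 and 2, and those beside Atg5 and AW146154 had 0 and 2 each. Thus 4 of the 6 had reads in both libraries. The table held the 3' end of 5 of them, and in these the last AATAAA began 11 to 25 bases before the end of the region: 25 beside Zfp207, 24 beside Atg5, 16 beside Gm34820, 14 beside AW146154 and 11 beside Yif1b. The letters were not general. Of the 82 regions (6.90% of all) with at least 100 bases in the table, 10 (12.2%) held AATAAA on their own strand in the part covered. Of all 32851 promoter windows, which are 300 bases long, 11.3% held it on the gene's strand and 19.6% on either strand. The table held the 3' end of 14 of the 82 regions, long ones included, and 7 of these held AATAAA, 6 of them within 30 bases of the end and the one beside Nr1h2 104 bases from it. The other 7, among them those beside Mbtps2, Irf2bp2 and Tcf3, held none in the part covered. All 7 lay before a gene's start on its strand and ended at or near that start. An end on a gene's edge need not be the end of a transcript. These 7 therefore do not show how often transcript ends lack the signal. The 6 regions printed thus stand for no share of the members.

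The stretch beside Yif1b belonged to a region of 175 bases, close to the most common length of the set. By its letters it resembles B2 elements, a family of short repeats present in very many copies in the mouse genome. Searched with BLAST (at least 100 aligned bases and 75% identity), it matched 2495 of 141767 annotated M21 transcripts (1.76%) and 99 of the 32851 promoter windows (0.301%). No repeat annotation or genome sequence was used here, so how many other regions hold such a repeat was not tested.

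Length divided the set. Of the models, 34.8% in replicate 1 (237 of 681, Wilson 95% interval 31.3 to 38.5) and 36.3% in replicate 2 (314 of 866, interval 33.1 to 39.5) were 151 to 200 bases long. Unspliced antisense models with at least 2 reads, which lie opposite annotated genes, had 5.24% (4.62 to 5.94) and 6.32% (5.68 to 7.02) in that range. Unspliced models within annotated genes had 4.69% and 5.70%. The intervals of the intergenic models did not overlap those of either class in either library. These intervals count each model as a separate draw and cover no spread between animals or libraries. The median was 280 and 210 bases for the intergenic models, against 1358 and 1069 bases for the antisense ones. Models of 1 read had 30.3% and 33.1% in the range. Among spliced intergenic models with at least 2 reads, 1 of 44 and 1 of 48 fell in the range.

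**Figure D1:**
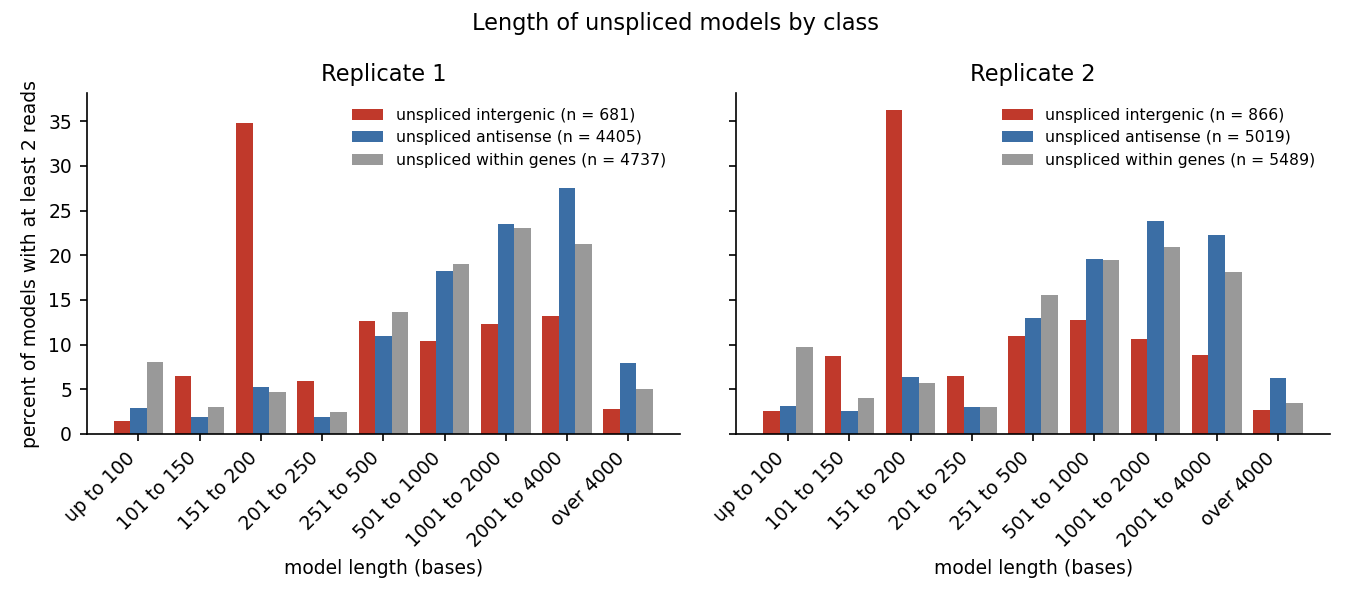
Length of unspliced models with at least 2 reads in replicate 1 (left) and replicate 2 (right), as the percent of models of a class (y axis) in each length bin in bases (x axis). The red bars of the intergenic models peak at 151 to 200 bases (34.8% and 36.3%), where the antisense and within-gene classes have 4.69% to 6.32%.

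After merging, 415 of the 1188 regions were 151 to 200 bases long, and they held 1243 reads in replicate 1 (29.7%) and 1717 in replicate 2 (32.4%). The single most common length was 177 bases, with 48 regions. Between 173 and 181 bases lay 227 regions (19.1% of all), of which 135 (59.5%) had reads in both libraries. The other large group was 324 regions of over 1000 bases with 1776 and 1727 reads.

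Where a region had reads in both libraries, its ends could be compared, since each library's models were placed separately. Regions on a gene edge were left out of this comparison, because there the model's end was the gene's end. In 311 regions of up to 250 bases, the 5' end of the most-read model differed by at most 10 bases between the libraries in 292 (93.9%) and the 3' end in 256 (82.3%). In 115 regions of over 1000 bases, the 5' ends lay within 10 bases in 25 (21.7%) and the 3' ends in 90 (78.3%). The median difference in these long regions was 512 bases at the 5' end and 1 base at the 3' end. Lengths here are those of the merged region, which a difference between the libraries' ends itself lengthens, so the agreement of both ends in the short regions is partly fixed by the grouping. Within the long regions the 3' ends agreed more often than the 5' ends.

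The regions with the most reads came from both groups. The 15 with the most reads held 1184 reads in replicate 1 (28.3% of all region reads) and 1356 in replicate 2 (25.6%), and 14 of them had reads in both libraries. Of the 15, 8 were 100 to 200 bases long and 6 were over 1000 bases long. The first was chr13:55184770-55189156 on the plus strand, 16011 bases past the 3' end of Fgfr4, a receptor for fibroblast growth factors, on the same strand. It is 4387 bases long and had 336 reads in replicate 1 and 237 in replicate 2 (294 ± 76.1 CPM, SD, n = 2). Its most-read models ran from 55184770 to 55189156 in replicate 1 and from 55184771 to 55189154 in replicate 2. Fgfr4 itself had 49 and 31 reads, fewer than the region in each library.

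Other long regions with many reads stood beside genes with fewer reads. A region of 2955 bases at chr11:100458716-100461670, 944 bases past the 3' end of Klhl11 on the opposite strand, had 80 and 105 reads, where Klhl11 had 1 and 6. A region of 4508 bases at chr2:75638367-75642874 had 95 and 67 reads, and its nearest gene, the pseudogene Gm13655, had none. There the most-read model was 150 bases long in replicate 1 and 4506 bases long in replicate 2, so merged reads came from models of unlike length. Before the start of Dhx40, which encodes a helicase-related protein, a region of 4304 bases at chr11:86811826-86816129 had 87 and 50 reads against 7 and 12 for the gene. A region of 5255 bases before the start of Eid2 on the opposite strand, chr7:28256150-28261404, had 55 and 63 reads, and Eid2 had 43 and 53. Only at Eid2 were the reads of gene and region of like number.

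Some of the short ones lay far from any gene. The 121-base region chr15:103619120-103619240 had 70 and 89 reads (81.5 ± 12.6 CPM, n = 2) and its nearest gene, the long noncoding RNA gene Gm49272, was 30552 bases away with no read. The 180-base region chr7:126643198-126643377 had 66 and 77 reads, and its most-read model ran from 126643199 to 126643371 in replicate 1 and from 126643198 to 126643377 in replicate 2. The 182-base region chr2:50017462-50017643 had 51 and 61 reads at 48786 bases from Lypd6, and the 175-base region chr7:126099723-126099897 had 42 and 55 reads at 1818 bases past the 3' end of Xpo6 on the opposite strand. A 107-base region on the unplaced sequence GL456382, which carries no annotated gene, had 33 and 39 reads. These 5 had more reads in replicate 2, and none of them passed the test between libraries given below.

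**Figure D2:**
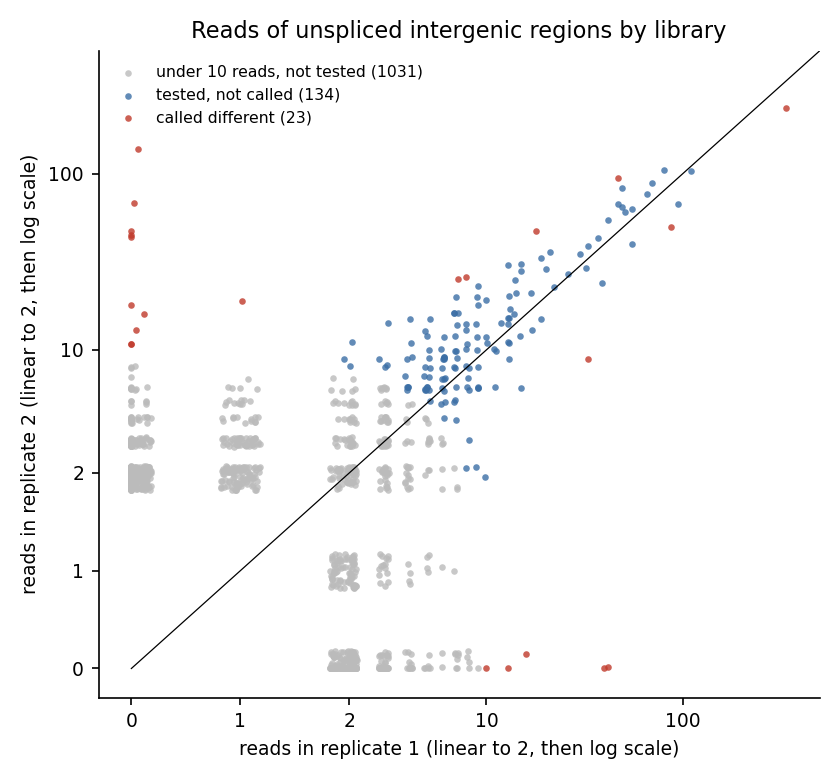
Reads of each of the 1188 regions in replicate 1 (x axis) and replicate 2 (y axis), both axes linear up to 2 and logarithmic above, with points spread slightly so that they do not hide each other. Grey points (1031) had under 10 reads over both libraries, blue points (134) were tested and not called, and red points (23) were called, most of them on an axis where 1 library has 0 reads; the line marks equal reads.

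Each library was then used to look for the models the other had chosen, which the rule had not used. Of the 681 models chosen in replicate 1, 455 (66.8%, Wilson interval 63.2 to 70.2) overlapped an unspliced intergenic model of replicate 2 with any read count. Of the 866 chosen in replicate 2, 522 (60.3%, 57.0 to 63.5) were found in replicate 1. The share rose with the reads of the model. It was 54.7% and 46.0% for models with 2 reads, 82.9% and 83.9% for those with 5 to 9, and 91.7% and 89.1% for those with at least 10. Models with 1 read were found in 21.3% and 16.3%. Antisense models with 2 reads were found in 60.1% and 52.7%, and those with at least 10 in 95.6% and 94.7%. When unspliced models of any class were accepted in the other library, an alternative chosen after seeing the data, all 60 models with at least 10 reads in replicate 1 and 91 of 92 in replicate 2 were found.

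**Figure D3:**
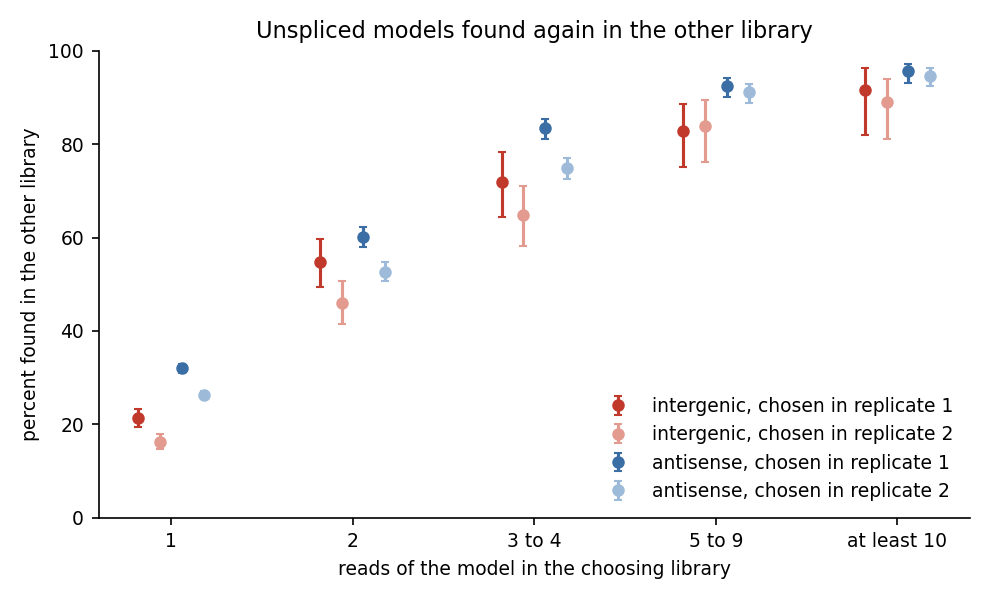
Percent of unspliced models found in the other library (y axis) by their reads in the library that chose them (x axis), for intergenic (red) and antisense (blue) models, with Wilson 95% intervals. Intergenic models rise from 21.3% and 16.3% at 1 read to 91.7% and 89.1% at 10 or more reads.

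Many regions touched a gene without entering it. Of the 1188, 254 (21.4%) shared exactly 1 base with the edge of an annotated gene and no region shared more. The other regions lay at a median of 3532 bases from the nearest gene (quartiles 1292 and 10207). Over all distances, 353 regions (29.8%) lay past a gene's 3' end on its strand, 297 before its start on the opposite strand, 273 (23.0%) before its start on its strand and 263 (22.2%) past its 3' end on the opposite strand. On the gene edge the classes were less even: 108 regions began at the 3' end of a gene on its strand and 95 began at a gene's start on the opposite strand, while 28 ended at a start and 23 at a 3' end. In 203 of the 254 it was therefore the region's 5' end that lay on the gene edge. Regions made only of 1-read models had the same 2 leading classes there, with 195 and 265 of 577. A further property of the models is that 4 regions were a single base long, so at least in these the model's length is not that of a read.

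**Figure D4:**
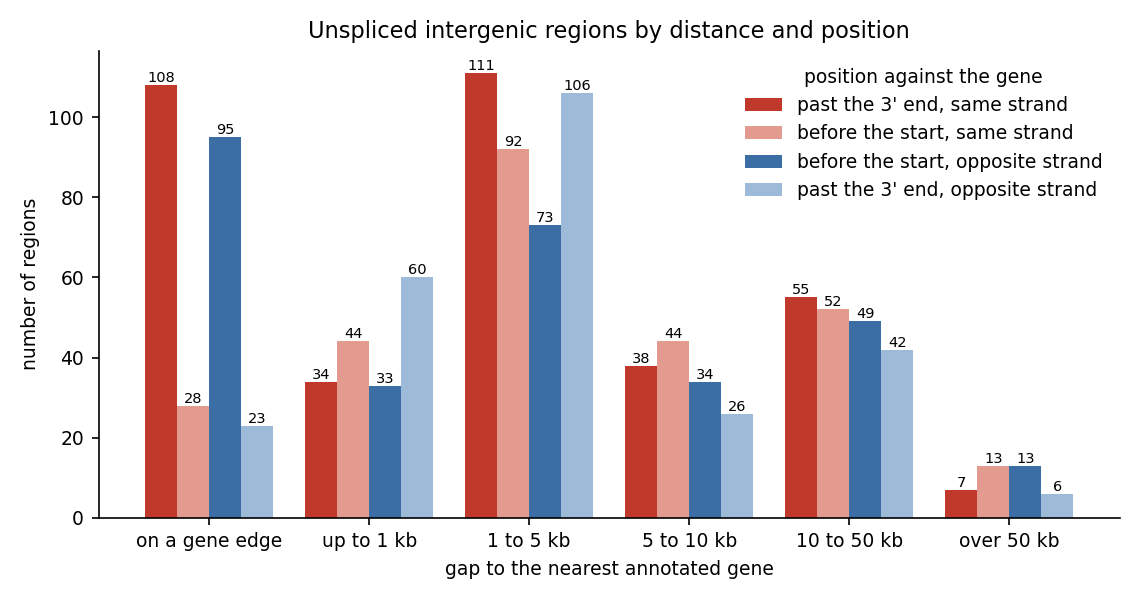
Number of regions (y axis) by the gap to the nearest annotated gene (x axis) and by position and strand against that gene (colours). On a gene edge, 108 regions past the 3' end on the same strand and 95 before the start on the opposite strand outnumber the 28 and 23 of the other positions, while at 1 to 5 kb the 4 positions have 73 to 111 regions.

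Short regions made up a larger share of the regions over 5 kb from a gene than of the nearer ones. Of the 415 regions of 151 to 200 bases, 9 touched a gene, 44 lay up to 1 kb from it and 134 at 1 to 5 kb. The share of regions of 151 to 200 bases was 3.54% on a gene edge, 25.7% up to 1 kb from a gene, 35.1% at 1 to 5 kb, 64.1% at 5 to 10 kb, 60.1% at 10 to 50 kb and 46.2% of the 39 regions beyond 50 kb. In the same order, regions of 1-read models had 3.12%, 21.2%, 30.4%, 46.5%, 43.6% and 33.9%. Regions of up to 250 bases lay at a median of 5384 bases from the nearest gene where they did not touch it, and those of over 250 bases at 1956. The nearest gene had at least 10 reads over both libraries for 65.4% of the regions on an edge and for 28.3% of those at 10 to 50 kb. Regions of 1-read models had nearly the same shares, 65.9% and 29.3%. Of all 55536 annotated genes, 20.0% had as many reads, and of the protein-coding ones 47.9%.

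Regions that began at a gene start on the opposite strand stood beside genes with reads. Of the 95 on an edge, 86 adjoined a protein-coding gene, and 72 (75.8%) adjoined a gene with at least 10 reads. Regions of 1-read models in that position did so in 215 of 265 (81.1%), so this was not particular to the members. Of the whole set, 64 regions (5.39%) had their 5' end inside the RefSeq promoter window of an opposite-strand gene, which spans 250 bases before to 50 after its start, against 5.08% of the regions of 1-read models. The region beside Kpnb1, which encodes the nuclear import receptor importin beta, lies at chr11:97187881-97189335 and had 9 and 10 reads, where Kpnb1 had 86 and 106. The region beside Bicra, a chromatin remodelling gene, had 22 and 23 reads and the gene 4 and 3. The promoter windows of these opposite-strand genes held a median of 28 CG pairs (quartiles 18.5 and 34.5, 79 windows), and all promoter windows held a median of 7 (quartiles 3 and 20). Every window of such a gene was counted among the 79, whether or not it held the 5' end of a region. CG-rich promoters are common at broadly expressed genes, and the genes beside a region were not matched to others on their level.

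The promoter windows of 2 genes are shown for divergent regions with reads in both libraries, with the bases inside the region in capitals and each window on the strand of the gene named. The first adjoins a region of 1803 bases, chr15:86212657-86214459 on the minus strand, with 49 and 65 reads (58.4 ± 10.7 CPM, n = 2), which runs away from Tbc1d22a and ends at the small nuclear RNA gene Gm22818. Its 3' end lay on the edge of Gm22818 and its 5' end at the RefSeq start of Tbc1d22a. Its most-read models had the same start and end in both libraries, which at gene edges is no measure of agreement. The second belongs to 2310047K21Rik, a RefSeq long noncoding RNA whose own strand the region shares and which M21 does not list there, opposite Qser1. That region, chr2:104816760-104818678, had 8 and 6 reads.
Tbc1d22a window, chr15:86214209-86214508, plus strand: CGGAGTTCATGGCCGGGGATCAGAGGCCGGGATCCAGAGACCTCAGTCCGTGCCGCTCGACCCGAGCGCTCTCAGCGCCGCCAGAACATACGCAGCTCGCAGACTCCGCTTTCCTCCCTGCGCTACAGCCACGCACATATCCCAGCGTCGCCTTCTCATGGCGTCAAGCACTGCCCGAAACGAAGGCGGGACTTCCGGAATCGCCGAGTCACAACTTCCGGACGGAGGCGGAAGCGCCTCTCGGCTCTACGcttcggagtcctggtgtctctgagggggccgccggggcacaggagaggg
2310047K21Rik window, chr2:104816672-104816971, plus strand: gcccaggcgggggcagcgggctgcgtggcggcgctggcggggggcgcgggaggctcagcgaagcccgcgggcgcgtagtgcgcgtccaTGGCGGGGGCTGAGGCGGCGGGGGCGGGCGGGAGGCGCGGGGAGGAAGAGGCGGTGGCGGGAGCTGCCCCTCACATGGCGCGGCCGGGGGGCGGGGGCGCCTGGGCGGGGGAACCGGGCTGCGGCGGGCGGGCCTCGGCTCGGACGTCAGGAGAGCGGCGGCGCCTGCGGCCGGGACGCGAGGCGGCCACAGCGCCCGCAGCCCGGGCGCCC
The windows held 33 and 49 CG pairs, above the upper quartile of 20 of all windows.

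Of the 108 regions that began at the 3' end of a gene on its strand, 54 followed a pseudogene and 48 a protein-coding gene. The best match of these pseudogenes among protein-coding transcripts was at least 95% identical in 48 of the 54 (median 99.1%), and 26 of the 54 (48.1%) ended in a stop triplet, against 32.7% of all 9941 annotated processed pseudogenes. The 54 were taken from pseudogenes of any type, so the sets compared are not alike in kind. Reads of such copies and of their sources can be exchanged where the sequences are nearly identical, so these values are uncertain. The regions themselves were 495 bases long at the median and held 366 reads in replicate 1 and 637 in replicate 2, and the pseudogenes they follow held 840 and 721. For 20 of the 54, no read was assigned to the pseudogene itself in either library.

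The last 60 bases of the pseudogene are shown for the 6 of these regions with the most reads, because the merged region begins on the last base printed. A single library's model can begin farther on, as at Gm6969 below. Capitals mark a stop triplet at the end.
Gm6969, 97.7% identical to Cox7a2l: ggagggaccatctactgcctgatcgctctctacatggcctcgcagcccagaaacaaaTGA
Gm10231, 100% identical to Atp5g2: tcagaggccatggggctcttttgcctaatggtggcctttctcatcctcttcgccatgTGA
Gm12939, 76.8% identical to Rps29: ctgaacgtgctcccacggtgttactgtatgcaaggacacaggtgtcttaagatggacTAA
Gm5526, 99.3% identical to Myl6: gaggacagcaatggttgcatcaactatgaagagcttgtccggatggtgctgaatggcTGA
Eif4a-ps4, 99.9% identical to Eif4a1: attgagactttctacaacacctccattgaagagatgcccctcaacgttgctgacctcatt
Gm9755, 99.9% identical to Tufm: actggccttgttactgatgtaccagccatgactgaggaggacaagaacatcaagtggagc
The region past Gm6969, a copy of a gene for a cytochrome c oxidase-related protein, lies at chr12:24637999-24638669 and had 110 and 104 reads (110 ± 5.97 CPM, n = 2), while Gm6969 had 14 and 5. Its only model in replicate 1 was 667 bases long and began on the last base of Gm6969. The only one in replicate 2 was 114 bases long, lay from 24637999 to 24638112 and did not touch Gm6969. The region past Gm12939 had 21 and 36 reads, and Gm12939 itself none. The region past Gm5526, a copy of a myosin light chain gene, had 15 and 31 reads and Gm5526 had 2 in each library. In these 3 pairs most reads of the locus were in the intergenic class. The region past Eif4a-ps4, a copy of a translation initiation factor gene, had 20 and 29 reads, and there the pseudogene had more, 145 and 148.

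Some regions lay past genes of the adrenal cortex and medulla. Past Cyp11b2, which encodes aldosterone synthase, chr15:74849130-74851010 had 11 and 10 reads, where Cyp11b2 had 311 and 226. Its only model in replicate 2 began on the last base of the gene. The only model in replicate 1 lay from 74849736 to 74850202 and did not touch the gene. Past Srd5a2, a steroid 5-alpha-reductase gene, chr17:74014891-74015141 had 3 and 4 reads at 1814 bases from the M21 gene, inside the longer RefSeq gene of that name. A region at chr3:98848600-98849838 with 3 and 4 reads lay inside the RefSeq gene Hsd3b1, a steroid dehydrogenase gene, and outside the M21 one. Past Dbh, the dopamine beta-hydroxylase gene of chromaffin cells, chr2:27183504-27186896 had 2 and 2 reads at 304 bases, against 209 and 156 for the gene.

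The nearest gene was on a marker list, and within 10 kb, for 7 regions. In the adrenal cortex list this held for 2 of 13 genes (Cyp11b2 and Fdx1) and in the chromaffin list 2 of 8 (Dbh and Th). The hepatocyte, fat and neuron lists had 1 gene each, and the erythroid, lymphoid and myeloid, fibroblast, endothelium and kidney lists had none. The region 2427 bases past Th, the tyrosine hydroxylase gene, had 0 and 6 reads, and unspliced models assigned to Th itself over it had 18 and 0. The region 81 bases past Serpina1a, a gene of hepatocytes, had 0 and 4 reads, where Serpina1a had 12 and 249. The hepatocyte list summed to 754 and 15658 CPM. The lymphoid and myeloid list summed to 939 and 197 CPM and the neuron list to 155 and 38.6. In these 3 lists no gene was at 0 in both libraries, and in the kidney list 3 of 4 were. The part of such cells in the differences between the libraries below was not tested.

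RefSeq (GRCm38.p6), the other gene catalogue used here, listed a gene over at least 50% of 110 regions (9.26%) on their strand, 67 of them protein-coding and 43 long noncoding RNAs. Regions of 1-read models had 7.26%. The strand was known only for RefSeq genes with a promoter window. At 121 of the 1188 regions a RefSeq gene of unknown strand was listed and could not be counted, so the 110 may be too few. In 45 of the 110 the RefSeq gene was the M21 neighbour itself, past whose 3' end the region lay. Ppara, a receptor that controls fatty acid oxidation, was followed by chr15:85802819-85806972 with 9 and 23 reads, where the M21 gene had 16 and 5. Hipk2, a kinase gene, was followed by chr6:38687514-38689555 with 7 and 16 reads, and Adcy9, an adenylyl cyclase gene, by chr16:4284888-4286973 with 5 and 7. None of these 3 passed the test between the libraries. Another 2 regions shared their edge base with a microRNA gene on its strand, Mir7688 with 2 and 2 reads and Mir130a with 0 and 3.

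The libraries were compared at the 157 regions with at least 10 reads over both, and no region made only of 1-read models reached 10 reads. They were tested together with 11094 annotated genes. The test was exact, binomial and two-sided, and set the replicate 2 part of each feature's reads beside the replicate 2 part of the whole data. After Benjamini-Hochberg adjustment over all 11251 features at a threshold of 0.05, 23 regions (14.6%) were called, 15 higher in replicate 2 and 8 higher in replicate 1. Of all features tested, 9.27% were called, 4.44% as higher in replicate 2 and 4.84% as higher in replicate 1. The 15 called regions with 0 reads in a library, and the one with 1 and 19 reads named below, met the rule of 2 reads only through the library where they were high. The counts of calls and directions are therefore given as a description. The median log2 ratio of replicate 2 to replicate 1, with 0.5 reads added, was 0.36 over the regions and -0.15 over all features. The regions chosen through 1 library are part of that 0.36. Without the regions with 0 reads in a library the median was 0.31. It was 0.27 when reads of other classes over a region or in its adjoining gene were added. With TMM scaling, which moves the median of all features to 0.00, the median over the regions was 0.51. Under that scaling 16 regions were called as higher and 7 as lower in replicate 2, and 7.97% of all features were called.

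Of the 23 called regions, 15 had 0 reads in 1 library, and at 14 of these that library had reads of another class over the region or in the gene it adjoins. The region past Gm10231, a copy of an ATP synthase subunit gene, lies at chr17:5816054-5816200 and had 0 reads in replicate 1 and 138 in replicate 2. Gm10231 itself, which shares 1 base with it, had 163 and 74 reads, so that gene and region together had 163 and 212 (adjusted exact binomial p = 0.145). Past Gm9755, a copy of a mitochondrial elongation factor gene, the region had 0 and 47 reads and the pseudogene 47 and 8, together 47 and 55. Past Gm10108 the region had 0 and 45 reads and the pseudogene 35 and 0. Past Gm15432 the library order was turned, with 42 and 0 reads in the region and 2 and 44 in the pseudogene, together 44 and 44. In these 4 pairs the reads of the region and of its neighbour were high in different libraries. That did not hold at Stk24, also an adjoining annotated gene, where the region had 16 and 0 reads. Stk24 itself had 45 and 39, together 61 and 39, so both were higher in replicate 1.

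Elsewhere the other reads belonged to unannotated loci. On chrY:43918755-43923547 the region had 0 and 68 reads, and unspliced models of an unannotated spliced locus over it had 87 and 0. At chr15:82362908-82365632, 4895 bases past the 3' end of Cyp2d22 on the opposite strand, the region had 0 and 44 reads and models assigned to an unannotated antisense locus had 25 and 0. At chr7:92638301-92639739, on the edge of Gm26944, the region had 40 and 0 reads and antisense models had 0 and 33. Of the 14 places, 5 had their other reads in the adjoining annotated gene, 5 in an unannotated spliced intergenic locus and 4 in an unannotated antisense locus. The remaining region was a single base at chr12:69375978-69375978, 2195 bases past Arf6, with 0 and 11 reads. It had no reads of another class in replicate 1, but another unspliced intergenic region, chr12:69375385-69375977, ended on the base before it and had 7 and 0 reads. Together they had 7 and 11 (exact binomial p = 0.481, unadjusted).

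**Figure D5:**
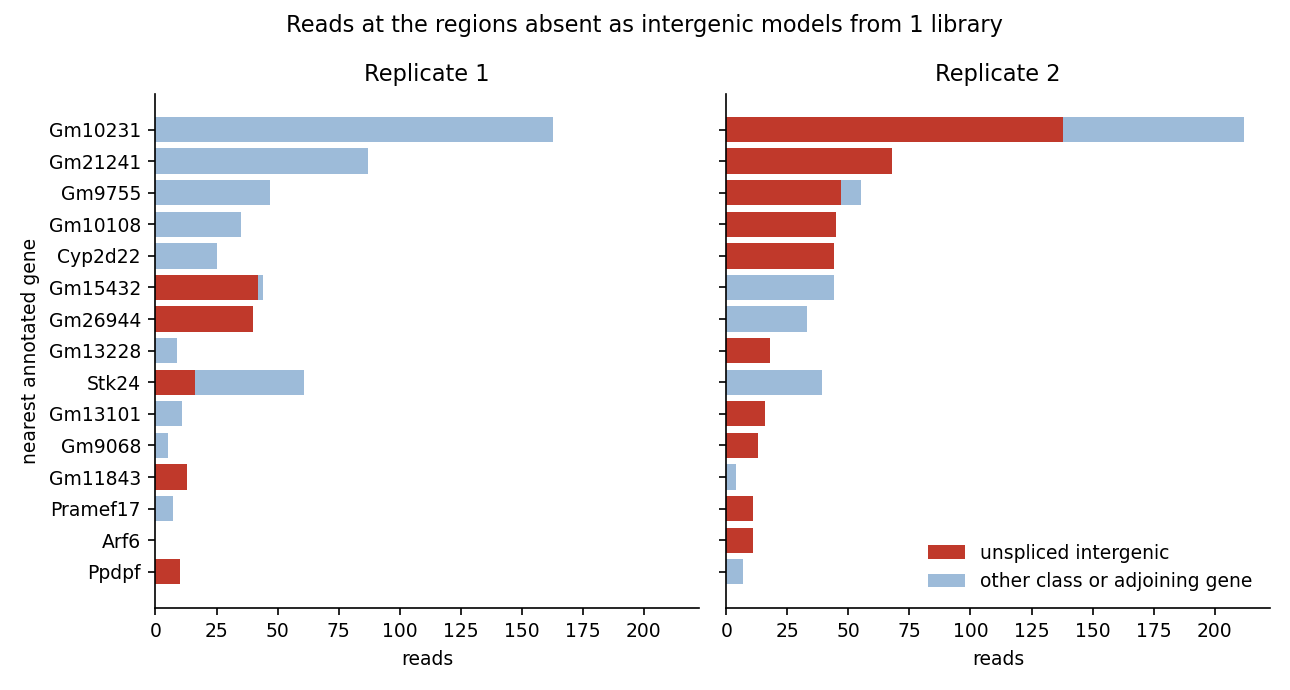
Reads (x axis) at the 15 regions with at least 10 reads over both libraries and 0 in 1 of them, named by their nearest annotated gene (y axis), in replicate 1 (left) and replicate 2 (right). Red bars are reads of the unspliced intergenic region and blue bars reads of other unspliced models over it or of the adjoining gene on its strand; 14 of the 15 have blue reads where the red ones are missing, for example 163 in replicate 1 at Gm10231, and the region near Arf6 has none, where the 7 replicate 1 reads of the region that ends on the base before it are not drawn.

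With the reads of the whole locus in place of those of the region, an alternative chosen after seeing the data, 9 of the 23 regions kept their call, the one near Arf6, for which the region on the neighbouring base was not counted, and the 8 with reads in both libraries. Over all 157 regions, 11 (7.01%) were called this way, against 9.14% of all features. Without the 15 regions absent in a library, 8 of 142 (5.63%) were called, against 9.12% of all features.

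Of the 8 called regions with reads in both libraries, 5 were higher in replicate 2. The 181-base region chr17:74140819-74140999 had 47 and 95 reads, 1.98 times as many per read of the library (95% interval 1.38 to 2.87, adjusted exact binomial p = 0.00236). Among the others, 2 regions of 154 bases had 8 and 26 reads at chr8:18970700-18970853 near Defb40 and 7 and 25 reads at chr17:14072987-14073140 near Gm7358. Both lost their call when the filter on reads was left out (adjusted exact binomial p = 0.0732 and 0.0565). A region of 314 bases at chr6:3201249-3201562 had 1 and 19 reads. Before the start of Gstp3, a glutathione S-transferase gene, chr19:4061499-4066102 had 18 and 47 reads (ratio 2.56, interval 1.46 to 4.68, adjusted exact binomial p = 0.00838), and Gstp3 itself had 4 and 39. Region and gene were both higher in replicate 2 at that place.

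The other 3 were higher in replicate 1. The region near Fgfr4 named above had 336 and 237 reads (ratio 0.691, interval 0.583 to 0.818, adjusted exact binomial p = 3.90e-04). The region before the start of Dhx40 had 87 and 50 reads (ratio 0.563, interval 0.389 to 0.806, adjusted exact binomial p = 0.0166). That call was lost with TMM scaling (adjusted exact binomial p = 0.0843) and with median-of-ratios scaling (0.0840). The region 3720 bases before the start of Rhbdd2, chr5:135623676-135628898, had 33 and 9 reads (ratio 0.267, interval 0.112 to 0.571, adjusted exact binomial p = 0.00336), where Rhbdd2 had 45 and 35. These 3 regions were 4387, 4304 and 5223 bases long. Of the 5 that were higher in replicate 2, 3 were under 200 bases, and the one before Gstp3 was 4604 bases long. Unspliced models of other classes also had a lower median length in replicate 2, at 1358 and 1069 bases for antisense and 973 and 762 within genes. A link between length and direction was not tested.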

How the data were processed

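The deposited values are whole-number read counts per transcript model, 1 table per library, without normalization by the authors. Per the file headers, the build is mm10 and the annotation GENCODE M21, and the source column of the annotation names TALON. Its version, the aligner and the filters are not stated in those headers or the labels. Length and exon number are the authors' deposited values.

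Replicate 1 had 981697 reads and replicate 2 had 1003061, of which 1.73% and 1.80% lay on ERCC spike-ins and were left out. Gene bounds came from annotated transcripts, since the deposited gene lines of 29.1% and 29.0% of genes were extended by the library's own models. Sequences came from the RefSeq tables (GRCm38.p6) and M21 transcripts, and pseudogenes were matched with BLAST+ 2.17.0. Tests used scipy 1.17.1 and edgeR 4.0.16 (TMM factors only), and the binomial test was tested on simulated data.

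The members and lists were chosen with earlier results of these data known. Regions named are the 15 with most reads, 3 per position within 10 kb, up to 8 called per direction by ratio and up to 10 near marker genes; regions absent in a library and examples of RefSeq genes and pseudogenes were added after their values were seen. The planned A share and poly(A) signal at 3' ends were not run, as no genome sequence was used here. Reads of the CAST alleles were placed on the same reference.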

Additional observations from a re-analysis of the deposited data

How the results depend on the processing

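The number of regions was 557 at 3 reads or more and 265 at 5 or more, against 1188, and leaving out a replicate gave 679 to 865. Merging across gaps of up to 100 bases gave 1186. For models chosen in replicate 1 and in replicate 2, the share found in the other library was 59.8% and 55.5% with an overlap of at least 50% of the length, 51.7% and 40.9% with at least 2 reads there, and 75.3% and 66.3% with any unspliced class there. With at least 5 reads, 24.6% of regions lay on a gene edge, 62.5% within 5 kb and 33.7% past a 3' end on the same strand. Counting each read once gave 60.7% within 5 kb and 36.1% past a 3' end. Gene lines as deposited put 24.8% of regions on or inside a gene, 127 of them by more than 1 base. Without models on a gene edge, 44.0% and 44.1% of models were 151 to 200 bases long. Called regions numbered 16 to 23 under TMM, median-of-ratios scaling, no filter, at least 20 reads and only models with at least 2 reads. They fell to 11 with the reads of the whole locus and to 8 without the regions absent in a library, all of which had been called. With the reads of the whole locus the chrY region near Gm21241 turned to -0.38 on the log2 scale. The regions near Gm7358 and Defb40 lost their call without a filter (adjusted exact binomial p = 0.0565 and 0.0732). In these reversals and moves the cause was not tested beyond the change of reads or members named. Measures of the A share and the poly(A) signal at 3' ends were not run, as no genome sequence was used here. No paired analysis was possible because there is 1 group. Most regions had under 10 reads (1031 of 1188), and the part of depth in their detection was not tested.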
